A study of Mus musculus with 2 samples.

Results

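Neutrophils made up 933 of the 9366 cells in a single-cell RNA library of injured mouse Achilles tendon tissue, or 9.96% (exact Clopper-Pearson 95% interval 9.36 to 10.6%). The matching library of the contralateral uninjured limb held 4 among 4760 cells, or 0.0840% (0.0229 to 0.215%). Cells were barcodes in which 500 genes or more were found and mitochondrial UMIs were 10% or less, a UMI being 1 counted RNA molecule. A neutrophil was a cell in which S100a8 and S100a9 together made up 1% or more of its UMIs and Krt14 and Krt5, the basal keratins of skin, gave at most 2 UMIs. The members were thus chosen by their measured S100a8, S100a9 and keratin counts, and their share describes what these limits selected. Each limb gave 1 library, so no test between limbs was possible, and every interval covers counting error only, not the spread between mice or between cells.

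Both libraries came from mice with an inducible Cre at 1 Hoxa11 allele (Hoxa11 wt/CreERT2), a Cre-dependent transactivator at the R26 locus (R26 wt/LSL-rtTA) and the transgene TetO-Vegfd. In such mice rtTA can switch on Vegfd, a growth factor for lymphatic vessels, in Hoxa11-lineage cells. Hoxa11 is a limb patterning gene expressed in mesenchymal cells of the lower limb. All animals had a burn with tenotomy at 8 to 12 weeks of age. The injured library was made from the cut tendon at day 7, and the other from the opposite tendon of burned mice, so it is not tissue from untreated animals. The design text names males and females and 5 animals per group, but no source used here says whether a library pooled animals. Control-genotype libraries were not analysed here. Vegfd itself stood at 93.7 CPM (UMIs per 1000000 UMIs) in the injured and 23.1 CPM in the uninjured library, and at 1.56 CPM in the injured neutrophils, which held 8 Vegfd UMIs in all.

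Neutrophils are short-lived granulocytes that leave the bone marrow, follow CXCR2 and formyl peptide signals into damaged tissue and there release granule proteases, oxidants and cytokines. Granule proteins are made in a fixed order during maturation in the marrow, the primary (azurophil) granules first, then the secondary and the tertiary (gelatinase) granules, so their messages tell young cells from mature ones. S100a8 and S100a9 encode the subunits of calprotectin, the most abundant protein of the neutrophil cytosol. In injured tissue neutrophils take up further programmes, among them an NF-kB-driven inflammatory one and an interferon-driven one.

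The 933 injured neutrophils had little RNA. Their median was 4066 UMIs per cell (quartiles 3381 and 5373) and 1376 genes, against 20087 UMIs and 4661 genes in the 8433 other injured cells, and they contributed 2.07% of the UMIs of the injured cells. At an equal depth of 1000 UMIs a neutrophil still showed 551.5 genes at the median, against 664 in cells of a macrophage gate and 651 in cells of a monocyte gate. These gates took cells outside the neutrophil rule with 2 or more UMIs of both Csf1r and Cd68. The macrophage gate (1663 cells) needed complement C1q genes at 0.1% of UMIs or more, and the monocyte gate (401 cells) less C1q and 5 or more UMIs of Ly6c2, Plac8 and Ccr2. Mitochondrial UMIs were 0.607% of the neutrophil total at the median, against 3.07% in the other injured cells. The 2 libraries shared 19 barcodes, of which 1 was an injured neutrophil.

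The share of S100a8 and S100a9 in a cell's UMIs ran from 1.00 to 28.9%, with a median of 5.89% and quartiles of 3.13 and 9.44%. The lower limit did not fall in a gap. Between 1.00 and 1.25% lay 33 cells, and between 0.80 and 1.00% another 24 that were left out. Csf3r, the receptor for the neutrophil growth factor G-CSF, had a UMI in all 33 cells just inside and in 87.5% of those just outside, Retnlg in 39.4 and 37.5%, and Il1b in 97.0 and 95.8%. The keratin limit removed 13 cells.

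The 4 markers that the rule did not use were all high in the selected cells. Cxcr2, the receptor that guides neutrophils to CXC chemokines, stood at 941 CPM (Poisson interval 915 to 968) in neutrophils and 2.89 CPM in the other injured cells, a 326-fold difference. Retnlg, a secreted resistin-like protein of mature mouse neutrophils, was 746-fold higher, at 1675 against 2.25 CPM. Csf3r was 73.1-fold higher, at 1205 against 16.5 CPM, and Il1b, the pyrogenic cytokine interleukin-1 beta, 50.9-fold higher, at 9017 against 177 CPM. In GENCODE M21 (GRCm38) Cxcr2 (ENSMUSG00000026180) lies at chr1:74153989-74161246 and Retnlg (ENSMUSG00000022651) at chr16:48872621-48874496. S100a8 (ENSMUSG00000056054, chr3:90668978-90670035) and S100a9 (ENSMUSG00000056071, chr3:90692632-90695721) lie close together. The genes of the rule, S100a9 and S100a8, stood at 38153 and 25683 CPM against 84.9 and 79.3 CPM. Because shares of cells with a UMI depend on depth, every cell was also thinned to 1000 UMIs. Cxcr2 then had a UMI in 59.4% of 932 neutrophils, 0.180% of macrophage-gate cells, 0.998% of monocyte-gate cells and 0.0418% of cells rich in collagen messages, which should lack it. Median full depths were 4067, 17214, 13552 and 45533 UMIs. Unthinned, the same shares were 90.9, 1.20, 3.49 and 2.80%.

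**Figure D1:**
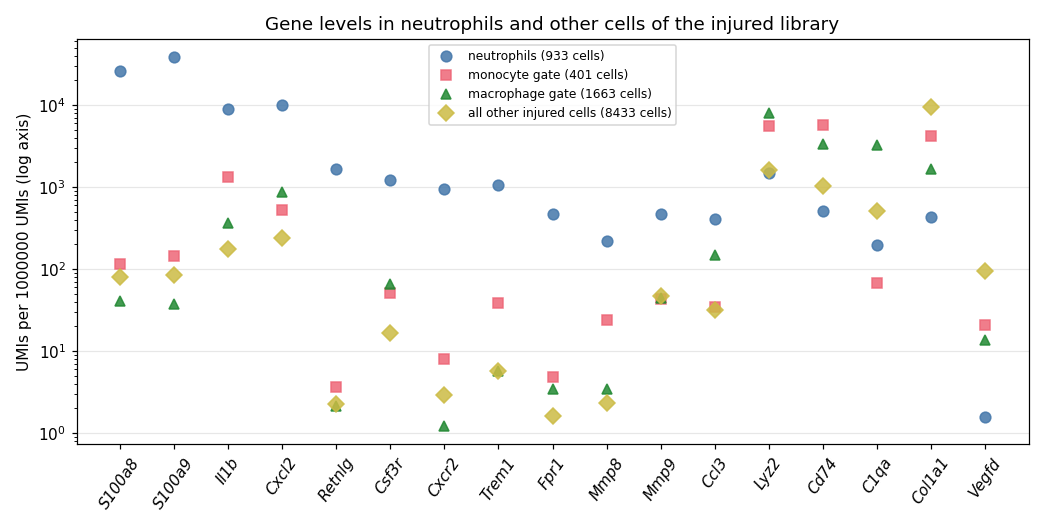
Levels of 17 genes (UMIs per 1000000 UMIs, log axis) in the injured neutrophils, the monocyte and macrophage gates and all other injured cells, 1 summed value per set. S100a8 to Fpr1 are highest in neutrophils, where Cxcr2 reaches 941, while C1qa and Cd74 are highest in a phagocyte gate and Col1a1 and Vegfd in all other injured cells.

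Against all other injured cells, 1033 of 4481 genes at 50 CPM or more on either side were 2-fold or more higher in neutrophils (23.1%) and 1971 were 2-fold or more lower (44.0%). The median log2 ratio over these genes was -0.60 (pseudocount 5 CPM). Against the macrophage gate 18.7% of 4082 genes were higher and 38.2% lower, and against the monocyte gate 18.7% of 4017 were higher and 37.8% lower. The 20 highest genes held, after the calprotectin genes and Retnlg, the cysteine protease inhibitors Stfa2l1 (490-fold) and Cstdc4 (475-fold). Acod1, which makes the antibacterial metabolite itaconate, was 286-fold higher at 2511 CPM. G0s2, an inhibitor of fat breakdown, was 169-fold higher at 2669 CPM, and Hdc, the enzyme that makes histamine, 105-fold higher at 2117 CPM. Slc7a11, the cystine transporter that feeds glutathione synthesis, reached 2943 CPM against 38.1 CPM. Il1r2, the decoy receptor for interleukin-1, reached 2804 against 32.3 CPM. The 10 lowest genes were matrix and stromal genes, led by Sfrp2 at 6.82 against 349 CPM and Col1a2 at 287 against 7384 CPM. Neutrophils also carried 430 Col1a1 CPM, 22.1-fold less than the other cells. How much of that level is free RNA in the droplets was not tested.

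Receptors for chemoattractants were higher throughout, in 9 of 9 tested members of the list, where 23.1% of all tested genes were. Fpr1 and Fpr2, which sense formyl peptides from bacteria and mitochondria, were 296- and 92.1-fold higher. The leukotriene B4 receptor Ltb4r1 was 14.1-fold higher and C5ar1, the receptor for complement C5a, 15.8-fold higher. Cxcr4, which binds CXCL12 and holds cells in the marrow and in tissue, was 5.78-fold higher at 316 CPM. Its ligand Cxcl12 was 29.9-fold lower in neutrophils than in the other cells, at 14.0 against 420 CPM. Cxcr5, a receptor best known from B cells, stood at 201 against 1.51 CPM and had a UMI in 39.8% of neutrophils. It was in no list and was picked after its value was seen.

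The CXCR2 ligands were divided between neutrophils and the other cells. Cxcl2 had the highest level of any Ccl or Cxcl gene in neutrophils, at 9940 against 237 CPM, a 41.9-fold difference, and Cxcl3 stood at 503 against 12.4 CPM. Neutrophils thus held 47.0% of the Cxcl2 UMIs and 46.2% of the Cxcl3 UMIs of the injured cells, against 2.07% of all UMIs. Cxcl5 was the reverse, at 4.87 CPM in neutrophils and 206 CPM in the other cells, a 42.3-fold difference. Cxcl1 differed less, at 98.8 against 133 CPM.

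Cytokines and their brakes were high together. All 13 tested members of the tissue inflammatory list were 2-fold or more higher than in the other injured cells, where 23.1% of all tested genes were. Their median log2 ratio was 3.66. Neutrophils held 51.8% of the injured Il1b UMIs and 46.2% of those of Il1a. The macrophage chemokines Ccl3 and Ccl4 were 12.7- and 17.4-fold higher, and Tnf 8.64-fold higher at 245 CPM. Among the brakes, the receptor antagonist Il1rn stood at 439 against 26.4 CPM and Cd274, which encodes the checkpoint ligand PD-L1, at 276 against 20.7 CPM. Ptgs2, the inducible cyclooxygenase of prostaglandin synthesis, was 15.2-fold higher. Set against the monocyte gate, Il1b was 6.88-fold higher in neutrophils, where the monocyte level was 1310 CPM.

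Surface sensors showed the same pattern in 12 of 13 tested genes, where 23.1% of all tested genes were higher. The C-type lectins Clec4d and Clec4e, which bind fungal and mycobacterial lipids and dead-cell signals, reached 2997 and 1817 CPM, 49.8- and 53.1-fold above the other cells. Trem1, an amplifier of inflammatory signals, was 187-fold higher, Cd14 40.3-fold higher and the inflammasome sensor Nlrp3 51.5-fold higher. The exception was Fcgr2b, the inhibitory Fc receptor, at 74.0 against 148 CPM. All 8 tested adhesion genes were higher, among them Icam1 at 2.17-fold. Of the NADPH oxidase, which makes the oxidative burst, the cytosolic subunits Ncf1 and Ncf4 were 6.59- and 8.29-fold higher and the GTPase Rac2 12.4-fold higher. The membrane subunits Cybb and Cyba stood at 138 and 682 CPM, 1.41- and 1.81-fold above the other cells.

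Granule messages differed by list. Genes of the tertiary granule list used here were present. Mmp8, the neutrophil collagenase, stood at 222 against 2.33 CPM (95.4-fold) and Mmp9, a gelatinase, at 465 against 46.5 CPM. Slpi, an inhibitor of neutrophil elastase, reached 2258 CPM. Mmp8 and Slpi are also known from secondary granules, so the contrast with the secondary list depends on where these genes are placed. Of the 7 secondary granule genes 1 was at 50 CPM or more, Lcn2, which binds bacterial siderophores, at 381 CPM. Ltf, Camp and Ngp, encoding lactoferrin, cathelicidin and neutrophilic granule protein, stood at 6.82, 1.17 and 6.43 CPM. Primary granule genes lay at 67.8 CPM for Mpo and 110 CPM for Elane, and nearly all of these UMIs were in 7 cells described below.

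Of the survival and apoptosis list 8 of 10 tested genes were higher, where 23.1% of all tested genes were. Mcl1, on which neutrophil survival depends, stood at 3048 against 297 CPM, and Bcl2a1b, an inducible relative of Bcl2, at 321 against 44.7 CPM. Bax of the death machinery stood at 73.5 CPM, 1.85-fold below the other cells. Proliferation genes were low, with 4 of 5 tested cell-cycle genes 2-fold or more lower, where 44.0% of all tested genes were. Top2a stood at 5.46 against 85.1 CPM. The 4 class II antigen presentation genes were all lower, beside the same 44.0% of all genes, with Cd74 at 514 against 1043 CPM. Without the states that carried markers of other or younger cells (states 5 and 7 below), 10 of 10 tested chemoattractant receptors and 13 of 13 inflammatory genes were still higher, with 24.3% of 4518 genes higher and 47.1% lower.

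Metabolic genes were split. Of 14 tested hypoxia and glycolysis genes 6 were higher, where 23.1% of all tested genes were, above all the glucose transporter Slc2a3 (47.4-fold, 380 CPM) and Egln3, a prolyl hydroxylase of the oxygen-sensing pathway (14.6-fold). Hif1a, Ldha, Gapdh and 5 others lay within 2-fold. Among repair signals, the matrix protein Thbs1 stood at 2612 against 467 CPM, and the interleukin-6 family cytokine Osm 11.6-fold higher at 157 CPM. Vegfa stood at 56.3 against 35.8 CPM, and Vegfd was 61.4-fold lower. Igf1r, the receptor for insulin-like growth factor 1, reached 1716 against 159 CPM. The transcription factor Cebpb stood at 5409 CPM, 17.2-fold higher, while Cebpe, which drives secondary granule genes in the marrow, stood at 7.21 CPM.

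Leiden clustering of the 933 injured neutrophils gave 7 states. They are numbered by size and called by their leading genes, since the clusters were made from the expression of these same cells and none of the differences between them is a test. State 1 held 341 cells (36.5%, interval 33.5 to 39.7%) and state 2 held 337 (36.1%, 33.0 to 39.3%). State 3 held 111 cells (11.9%), state 4 55 (5.89%), state 5 54 (5.79%), state 6 28 and state 7 7 (0.750%). Against all other members, 1.60% of the tested genes were 2-fold or more higher in state 1 and 5.05% lower. For state 2 these shares were 0.516 and 12.0%, for state 3 0.451 and 8.99%, for state 5 32.0 and 10.8%, for state 6 15.1 and 21.8%, and for state 7 44.3 and 32.9%. In state 4 4.33% were higher. Since state 5 is deep and weighs on every such comparison, states 1, 2, 3, 4 and 6 were also compared among themselves. Median depths were 3680 and 3995 UMIs in states 1 and 2, 7170 in state 3 and 16905 in state 5.

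**Figure D2:**
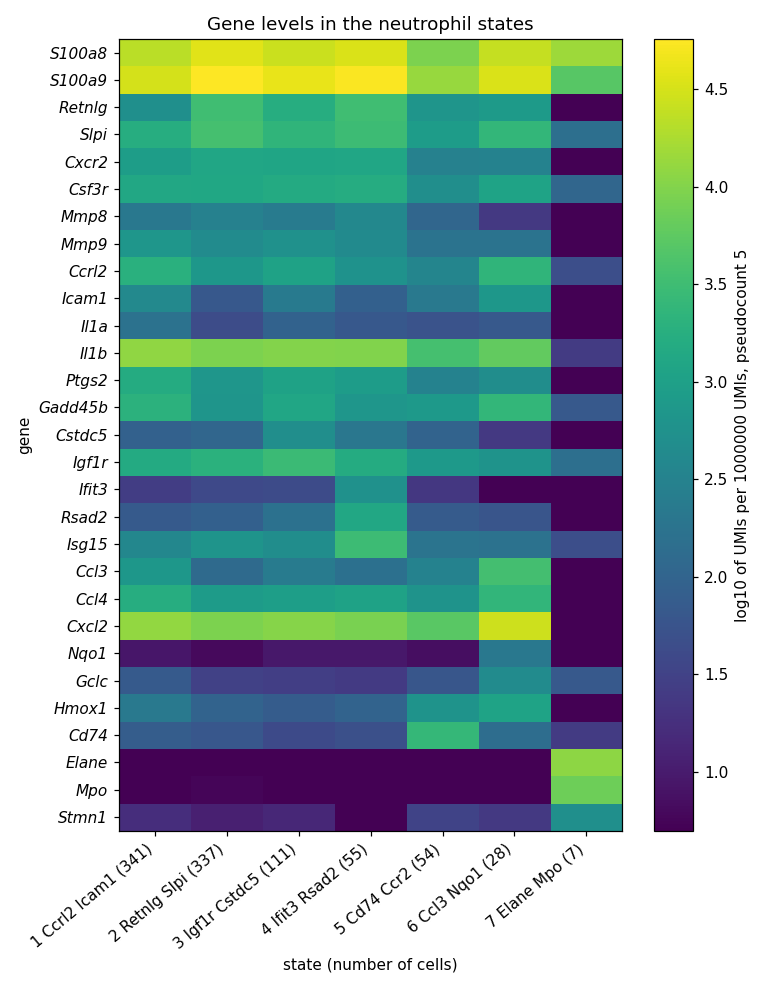
Levels of 29 genes in the 7 states, as log10 of UMIs per 1000000 UMIs after adding 5, with 1 summed value per state. Retnlg and Slpi are highest in state 2, Ccrl2 is high in states 1 and 6, Ifit3 and Rsad2 stand out in state 4, Ccl3 and Nqo1 in state 6, Cd74 in state 5, and Elane and Mpo in state 7.

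States 1 and 2 held most of the neutrophils and differed in Retnlg, Icam1 and some inflammatory genes. In state 2 the median cell had 12.7 Retnlg UMIs per 10000 (highest 382), and in state 1 the median was 0.00 (highest 142), so the ranges overlapped. As summed levels Retnlg stood at 3298 CPM (3205 to 3394) in state 2 and 526 CPM in state 1, a 6.27-fold difference. Slpi was 2.11-fold higher in state 2, at 3609 against 1708 CPM, and Adam8, a membrane protease of the tertiary granule list, 1.93-fold higher. S100a9 was 1.85-fold higher in state 2, and the S100a8 and S100a9 share had medians of 8.57% in state 2 and 4.37% in state 1. The 8 leading genes of state 2 also included the retinol dehydrogenase Rdh12, Mgst1, a microsomal glutathione transferase, and G0s2.

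State 1 carried more Icam1, Cxcr4 and Ccrl2 and more of some cytokine messages. Icam1, the adhesion ligand of integrins, stood at 400 CPM (367 to 435) in state 1 and 59.97 CPM in state 2, a 6.67-fold difference. The gene had a UMI in 23.5% of state 1 cells and 4.75% of state 2 cells at 1000 UMIs per cell. Ccrl2, a receptor that presents the chemoattractant chemerin, was 2.75-fold higher than in state 2 and Cxcr4 2.61-fold higher. Icam1 and Cxcr4 were the 2 of 7 tested ageing and tissue retention genes that were 2-fold or more above the members of states 2, 3, 4 and 6. By that comparison 2.75% of all tested genes were higher. Ccl3 stood at 702 against 123 CPM, Il1a at 163 against 39.1 CPM and Tnf at 419 against 130 CPM. Bcl2a1b was 3.23-fold higher and the stress gene Gadd45b 3.08-fold higher. The most abundant inflammatory messages differed less, Il1b by 1.33-fold and Cxcl2 by 1.39-fold. Csf3r was nearly even, at 1332 and 1292 CPM.

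Against the members of states 2, 3, 4 and 6, 3 of 13 tissue inflammatory genes (Ccl3, Tnf and Il1a) and 5 of 10 survival and apoptosis genes (Bcl2a1a, Bcl2a1b, Bcl2a1d, Bax and Gadd45b) were 2-fold or more higher in state 1, where 2.75% of all tested genes were. Retnlg was 2-fold or more lower, as were 6 of 9 interferon genes, against 1.86% of all tested genes. In state 2, by the same comparison, 4 of 13 inflammatory, 4 of 10 survival and apoptosis and 3 of 9 interferon genes (Ifit1, Ifit3 and Rsad2) were lower, against 4.20% of all. The other members in both comparisons include state 4, described below, where the interferon genes are highest. Of the 8 circulating neutrophil genes Retnlg alone was 2-fold or more higher in state 2, where 0.589% of all tested genes were. The summed circulating list stood at 10077 CPM in state 2 and 6101 CPM in state 1, with Retnlg as its most divided member. States 3 and 4 were nearer to state 2, at 8670 and 9714 CPM. Their median cells stood at 7791 and 9137 CPM, against 7673 CPM in state 2. The tissue inflammatory list stood at 25697 CPM in state 2 and 37634 CPM in state 1. State 2 also carried more messages of other cells. C1qa, C1qb, C1qc and Apoe, 4 of 5 tested macrophage markers, were 2-fold or more above the members of states 1, 3, 4 and 6. So was Pf4 of the platelet list, which stood at 2374 CPM in the macrophage gate and 408 CPM in all other injured cells. The 8 macrophage markers summed to 863 against 446 CPM. More than 0.5% of UMIs came from these markers in 7 of the 337 cells, and their part in the differences of state 2 was not tested. The state held most of the haemoglobin messages, since 1 of its cells carried 2400 of the 2914 erythroid UMIs found in all neutrophils.

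**Figure D3:**
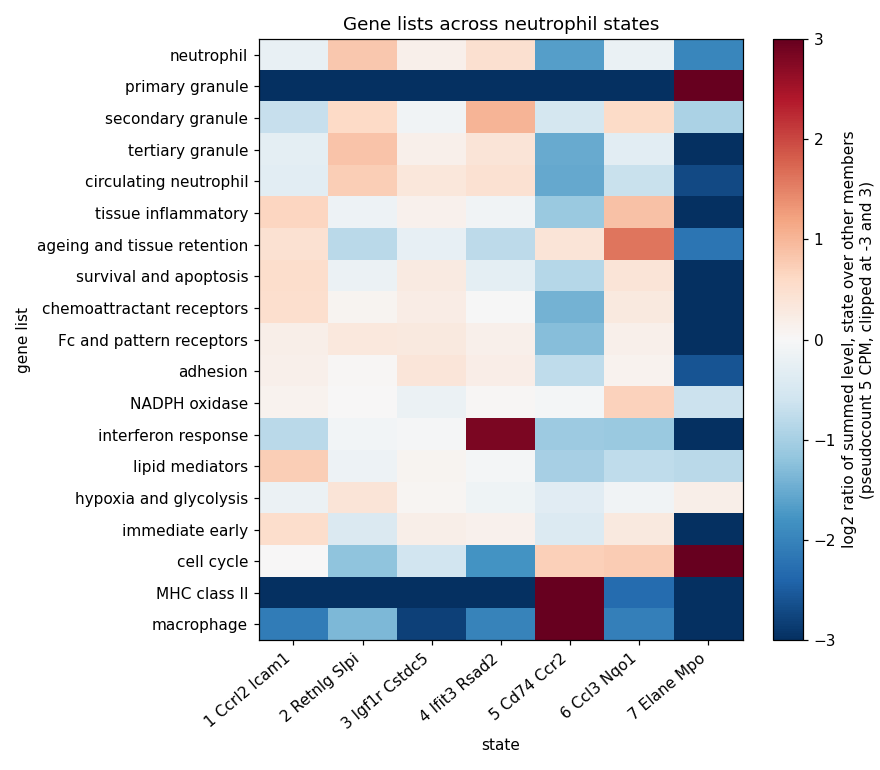
Log2 ratio of the summed level of 19 gene lists in each state over the other members (pseudocount 5 CPM, colours clipped at -3 and 3). The sum of the tissue inflammatory list is highest in states 1 and 6 (in state 6 with 20.8% of it from 1 cell). The circulating list is higher in states 2, 3 and 4, and the interferon list in state 4. The sums of the macrophage and class II lists stand out in state 5, where the median cell lies well below them. The primary granule and cell cycle lists stand out in state 7.

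State 3 was the deepest after state 5. Its leading genes were Cstdc5, a cysteine protease inhibitor of the stefin cluster (502 CPM against 97.8 CPM in the other members), Lrrk2, a kinase known from Parkinson's disease, Igf1r (2911 against 1438 CPM) and Prkce. Cstdc5 had a UMI in 24.3% of its cells, and Igf1r in 99.1%. The 8 leading genes spanned a median of 89.6 kb of genome from first to last base, against 30.2 kb over all 2881 genes tested and 7.79 to 20.5 kb for the leading genes of the other 6 states. Over all 13 genes that were 2-fold or more higher in state 3, the median was 36.2 kb. No pathway list stood out: against the members of states 1, 2, 4 and 6, no tested gene of the 19 pathway lists was 2-fold or more higher and 1 inflammatory gene, Ccl3, was lower. Among all genes 0.558% were higher and 0.744% lower by that comparison.

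State 4 was set apart by interferon-stimulated genes. All 14 tested genes of the 15 in the interferon list were 2-fold or more higher than in the other members, where 4.33% of 2885 genes were, and the summed list stood at 8100 against 1239 CPM in the members of states 1, 2, 3 and 6, a 6.54-fold difference. By that second comparison 4.62% of all tested genes were higher and 6.86% lower. Rsad2, encoding the antiviral enzyme viperin, stood at 1343 CPM (1204 to 1495) against 88.5 CPM in the other members. Ifit3 stood at 568 against 27.2 CPM and Ifit1 at 362 against 21.3 CPM. Isg15, a ubiquitin-like modifier, had a median of 24.2 UMIs per 10000 in state 4 cells (lowest 0.00, highest 165) and of 0.00 to 2.50 in the other states. At 1000 UMIs per cell Isg15 had a UMI in 85.5% of state 4 cells, against 32.6% in state 2 and 19.1% in state 1. Cxcl10, an interferon-induced chemokine, had no UMI in state 4 and 21.04 CPM over all neutrophils. State 4 resembled state 2 in its Retnlg level (3243 CPM) and its low Icam1 (83.5 CPM).

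The promoters of these genes were searched for the interferon-stimulated response element, through which the interferon response is known to act. The letters GAAA, NN and GAAA in a row, where N is any base, were sought on both strands in 300-base windows running from 250 bases before to 50 after each RefSeq gene start (GRCm38.p6). It occurred in 3.44% of all 32851 windows, in 4 of the 7 leading genes of state 4 that had a window (Ifit1, Ifit3, Ifit3b and Rsad2) and in 7 of 12 such genes of the interferon list. Both motif and genes were chosen with the results known, and a match is a description of letters, not a site of binding. Shown here are the 250 bases before the start for 3 of these genes, 5′ to 3′ on the strand of the gene, with matches in capitals. The 3 matches in Isg15 overlap.
Isg15, chr4:156200819-156201068 (- strand): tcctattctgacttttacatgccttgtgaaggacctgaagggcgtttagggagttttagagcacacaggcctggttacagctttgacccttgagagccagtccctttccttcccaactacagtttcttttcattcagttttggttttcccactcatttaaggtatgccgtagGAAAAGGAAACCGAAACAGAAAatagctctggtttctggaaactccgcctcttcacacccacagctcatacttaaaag
Ifit3, chr19:34583279-34583528 (+ strand): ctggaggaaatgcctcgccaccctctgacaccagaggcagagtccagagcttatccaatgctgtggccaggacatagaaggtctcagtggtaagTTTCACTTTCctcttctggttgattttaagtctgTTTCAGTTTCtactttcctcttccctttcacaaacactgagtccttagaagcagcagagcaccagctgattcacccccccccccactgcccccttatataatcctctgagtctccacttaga
Rsad2, chr12:26456453-26456702 (- strand): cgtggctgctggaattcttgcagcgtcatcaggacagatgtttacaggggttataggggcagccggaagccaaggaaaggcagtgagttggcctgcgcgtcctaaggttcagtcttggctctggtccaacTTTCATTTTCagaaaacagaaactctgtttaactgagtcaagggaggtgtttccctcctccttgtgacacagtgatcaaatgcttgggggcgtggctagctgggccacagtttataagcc
In Isg15 the first match begins at -78 from the start, in Ifit3 at -156 and in Rsad2 at -120. None of the leading genes of states 1, 2 and 6 with a window held the motif.

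The same search with TTGCNNAA, a form of the element bound by C/EBP factors, was made because Cebpb was so abundant. It occurred in 10.8% of all windows, in 4 of 7 leading genes of state 2 with a window (Mgst1, Rdh12, Retnlg and Slpi) and in none of 6 of state 1. Motif and genes were again picked with the results known. With so few windows these counts describe letters and do not set the states apart. The 250 bases before Retnlg, one of the leading genes of state 2, hold 1 match at their far end.
Retnlg, chr16:48872358-48872607 (+ strand): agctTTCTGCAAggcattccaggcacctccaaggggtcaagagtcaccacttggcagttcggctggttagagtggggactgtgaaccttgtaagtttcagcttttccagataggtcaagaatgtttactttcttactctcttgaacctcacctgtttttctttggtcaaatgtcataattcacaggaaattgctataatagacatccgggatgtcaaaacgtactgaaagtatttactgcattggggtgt
Of the calprotectin genes, the S100a9 window held 1 match and the S100a8 window none of these letters.

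State 6, with 28 cells, had high Ccl3 and Nqo1. Ccl3 stood at 3546 CPM (3202 to 3917) against 339 CPM in the other members and had a UMI in 92.9% of its cells. The median state 6 cell had 17.0 Ccl3 UMIs per 10000 (lowest 0.00, highest 238), where the medians of states 1 to 4 were 0.00. Cxcl2 reached 27804 CPM, but its median per cell was 110 per 10000 against 78.2 in state 1, and the highest cell held 1947, so the sum stood well above the median cell. Nqo1, a quinone reductase and a classic target of the factor NRF2, led the state with 210 CPM (133 to 315) against 2.79 CPM, from 23 UMIs in 28.6% of the cells, of which 1 cell gave 52.2%. Some other NRF2 targets, picked after their values were seen, were also high. The glutathione synthesis genes Gclc and Gclm stood at 456 and 401 CPM against 19.9 to 80.5 CPM in states 1 to 4. The haem oxygenase Hmox1 stood at 1139 against 71.2 to 211 CPM. The state levels of Srxn1, Txnrd1 and Slc7a11, looked at alongside, are not reported here, so these genes are a part of such targets and not a test of NRF2. Further leading genes were Lipa, the lysosomal acid lipase (510 against 38.03 CPM), and Slc31a2, a copper transporter (273 against 22.7 CPM). Among the 8 leading genes, 1 cell gave all UMIs of Zfp444, 90.9% of those of Gdf15, most of those of Sfn and 33.7% of those of Ccl3.

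State 6 also differed from the other states in several lists. Against the members of states 1 to 4, 5 of 7 ageing and tissue retention genes were higher (Icam1, Cd24a, Cstb, Ctsb and Vegfa) and Hilpda was lower, where 17.2% of 3001 genes were higher and 19.7% lower. Ctsb, the lysosomal protease cathepsin B, stood at 1705 CPM and Cstb, its inhibitor, at 2552 CPM, 3.40- and 3.80-fold above state 1. Of the inflammatory list 4 genes were higher (Ccl3, Cxcl2, Tnf and Il1rn) and 2 lower (Cxcl3 and Ptgs2). Its sum was 50329 CPM, but 1 cell gave 20.8% of it, and the median cell stood at 25598 CPM, below the medians of 30118 CPM in state 1 and 26677 CPM in state 3. Of the 5 genes of the tertiary granule list 3 were lower (Mmp8 at 18.2 CPM, Mmp9, and Adam8 at 45.6 CPM) and Mmp25 was higher. The secondary granule list summed to 656 against 467 CPM. Of 8 circulating neutrophil genes 3 were lower, among them Retnlg and Cxcr2, the latter at 310 CPM or 0.346 of the state 1 level. The NRF2 element, searched as TGACNNNGC, occurred in 12.4% of all windows and in 1 of the 8 leading genes of state 6 (Slc31a2). The Nqo1 window had no match. Siglecf, which marks neutrophils of some tumours and of the injured heart, gave 6.43 CPM over all neutrophils. In state 6 it gave 18.2 CPM from 2 UMIs (2.21 to 65.9 CPM), so the 2 levels cannot be told apart.

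**Figure D4:**
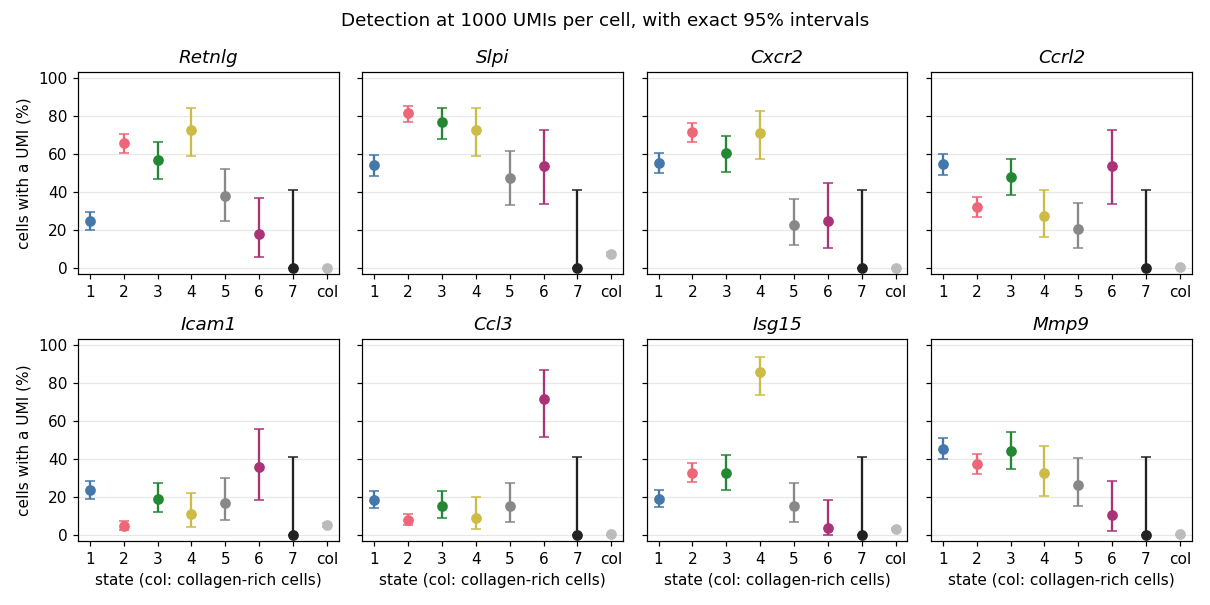
Share of cells with a UMI for 8 genes after thinning each cell to 1000 UMIs, by state and in cells rich in collagen messages (col), with exact 95% intervals for counting error. Isg15 reaches 85.5% in state 4, Ccl3 71.4% in state 6 and Retnlg 65.6% in state 2 against 24.6% in state 1, while Cxcr2 is at 0.0418% in collagen-rich cells.

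States 5 and 7 do not bear out the name of mature neutrophils. State 5 (54 cells) had a median of 16905 UMIs and 2.29% mitochondrial UMIs. It held all 8 macrophage markers 2-fold or more above the other members, where 32.0% of all tested genes were. They summed to 7334 against 585 CPM, but the median cell of state 5 stood at 1770 CPM. All 4 class II genes were higher too, Cd74 at 2505 against 59.4 CPM. Their sum was 5922 CPM, but the median cell stood at 175 CPM. For the monocyte markers, 4 of 5 tested were higher, with a sum of 1266 against 177 CPM and a median cell of 939 CPM. Among the 8 leading genes, the share of cells with a UMI ran from 11.1% for Apod to 87.0% for S100a4. Ms4a6c had a UMI in 77.8% and Ccr2 in 46.3%. Mesenchymal markers summed to 3516 against 962 CPM, and 1 cell gave 38.2% of them. Neutrophil messages were still there, with Csf3r at 511 CPM. The doublet caller Scrublet gave 18 of its cells (33.3%) a score above 0.2, out of 19 such cells among all injured neutrophils. The part of doublets in this state was not tested further, and the state stays unnamed.

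State 7 (7 cells) expressed the primary granule programme. Elane, which encodes neutrophil elastase, gave 563 UMIs or 11682 CPM, and had no UMI in the other states. Prtn3, Ctsg and Mpo stood at 11246, 8362 and 7200 CPM. Of the tested cell-cycle genes 8 of 8 were higher than in the other members, where 44.3% of 4231 genes were, Stmn1 at 519 CPM, and Cebpe stood at 166 CPM. Cxcr2 and Retnlg had no UMI in any of these cells, and S100a8 was above S100a9, at 14690 against 5104 CPM, where the other states had S100a9 above S100a8. One cell gave 59.6% of the primary granule UMIs of the state. These genes are those of immature granulocyte precursors. The monocyte markers also summed higher, at 1888 against 365 CPM in the other members, with 1 of 4 tested markers higher and 3 lower. The lineage of these 7 cells was not tested. The 4 of 4 tested primary granule genes that were higher in neutrophils as a whole rest on these 7 cells. Without states 5 and 7 none reached 50 CPM and the median log2 ratio of the list was -0.04.

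Cells of male and female mice were both present, and the states were not shared out evenly between cells with Xist UMIs and cells with Y-linked UMIs. Of the injured neutrophils, 96 (10.3%) had UMIs of Xist, the RNA of the inactive X chromosome, and none of 4 Y-linked genes, while 447 (47.9%) had Y-linked UMIs and no Xist. Of the remainder, 55 had both and 335 had neither, so many cells were not assigned. In state 1, 51 cells were Xist cells and 114 Y cells out of 341, and in state 2 19 and 189 out of 337. How far detection of these RNAs weighs on the shares was not tested. Among the other injured cells the shares were 41.7 and 36.5%. State 1 held 53.1% of the Xist cells (42.7 to 63.4%) and 25.5% of the Y cells (21.5 to 29.8%). State 2 held 19.8% and 42.3%, state 3 4.17% and 17.0%, and state 4 2.08% and 8.28%. Of the 7 cells of state 7, 6 were Xist cells and 0 were Y cells. With the number of mice unknown, sex and individual mouse cannot be told apart.

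**Figure D5:**
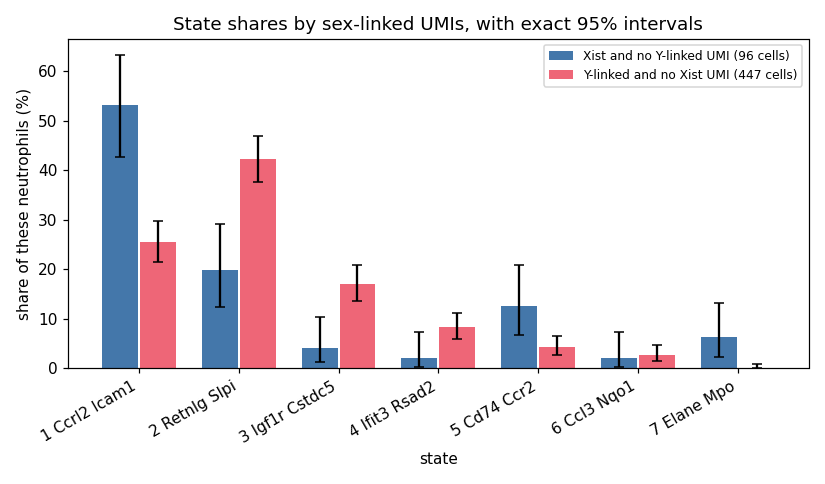
Share of neutrophils in each state among the 96 cells with Xist but no Y-linked UMIs and the 447 with the reverse, with exact 95% intervals for counting error. State 1 takes 53.1% of the first and 25.5% of the second, and state 2 takes 19.8% and 42.3%.

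Several differences between states 1 and 2 were also seen within each kind of cell. The states were made from the expression of both kinds together, so these splits describe the states and are no test of them. Retnlg was 4.98-fold higher in state 2 among Y cells (189 against 114 cells) and 10.6-fold higher among Xist cells (19 against 51 cells). Icam1 was 3.54-fold higher in state 1 among Y cells, at 244 against 68.8 CPM, and 15.7-fold higher among Xist cells, where state 2 gave 2 UMIs. Gadd45b was 3.38- and 2.36-fold higher in state 1, and Cxcr4 2.54- and 2.50-fold higher. Tnf was 2.75-fold higher in state 1 among Y cells, but among Xist cells it stood at 300.2 CPM (230.1 to 385) against 209 CPM (122 to 335), so the intervals overlapped. Among Y cells Rsad2 stood at 1292 CPM in state 4 (37 cells) and 88.1 CPM in states 1, 2, 3 and 6. Over all states the circulating neutrophil list summed to 4445 CPM in Xist cells and 8053 CPM in Y cells, and the tissue inflammatory list to 24241 and 28227 CPM, at median depths of 4081 and 4345 UMIs. State 5 held 12.5% of the Xist cells and 4.25% of the Y cells. Without states 5 and 7 the circulating list stood at 6088 CPM in 78 Xist cells and 8775 CPM in 428 Y cells, while the order of the inflammatory list turned, to 32563 and 30322 CPM.

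The 4 neutrophils of the uninjured limb are too few to compare. They held 7772, 4155, 2640 and 17682 UMIs, with calprotectin shares of 8.32, 13.5, 3.98 and 3.87%. All 4 had Csf3r, Il1b and Retnlg UMIs, and 3 had Cxcr2 UMIs. The deepest cell also held 44 UMIs of C1qa and 89 of Lyz2, which are macrophage genes. Cxcl2 gave 1, 75, 9 and 0 UMIs, so 1 of the 4 carried most of it, and Ccl3 gave 1 UMI in all. Summed, Retnlg stood at 3535 CPM (2916 to 4247) and Ltf, Camp and Ngp had no UMI, which allows up to 93.0 CPM each.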

How the data were processed

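Droplet 3' RNA libraries (10x Genomics, v2 kit, per the labels' protocols) were analysed, 1 per limb. The authors deposited raw UMI counts per gene and barcode, made with Cell Ranger 5.0.1 on mm10 per the submitters' processing notes. No source used here gives the annotation release or the cell calling. The labels' protocol aimed for 2000 to 6000 cells per channel, against 10691 and 6850 deposited barcodes. Depth was 650 to 282885 UMIs per injured and 617 to 211753 per uninjured cell.

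UMIs were summed over the cells of a set and scaled to CPM. A gene at 50 CPM or more in either set was called at 2-fold, and log2 ratios used a pseudocount of 5 CPM. No model was fitted, since each group is 1 library and cells are not replicates. Summed counts carry exact Poisson and shares exact Clopper-Pearson 95% intervals, and a count of 0 allows 3 counts. States are Leiden clusters (igraph 0.11.9, resolution 0.5, seed 1) on 1000 variable genes, 15 principal components (numpy 2.4.6) and 15 neighbours weighted by shared neighbours. Genes of mitochondria, ribosomes, haemoglobin, immunoglobulins and the sex-linked set, and unnamed models, did not enter. As a check of the code, the ratio intervals were run on counts simulated with Poisson error only. The clustering was run on simulated cells with planted differences. Neither run tests the states found here. Doublets were kept, and removal at a Scrublet score above 0.2 (scanpy 1.11.5) is an alternative. Free RNA was not removed. Collagen-rich cells had Col1a1 and Col1a2 at 1% of UMIs or more.

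Named genes were the markers, the list members, the 20 highest and 10 lowest genes against other injured cells, and the 8 highest genes at 100 CPM or more of each state. The same gene classes were left out. The neutrophil rule and the lists were chosen with earlier results of these data known, and comparisons without states 5 and 7 and within sex-linked cells were added after the states were seen. Values of some list genes are not reported here.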

Additional observations from a re-analysis of the deposited data

Results flagged for a closer look

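Barcodes outside the cell limits also held neutrophil messages. Of 1325 such injured barcodes, 35 met the calprotectin and keratin limits, 18 with fewer than 500 genes and 17 with more than 10% mitochondrial UMIs, and 24 of the 35 had a Cxcr2 or Csf3r UMI. In the uninjured library 3 of 2090 did. The 35 are marked because they lie in data that the comparisons above do not use, above the level of the uninjured limb. What these barcodes are was not tested.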

How the results depend on the processing

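No paired analysis was possible because each limb gave 1 library, and for the same reason no replicate could be left out. The number of injured neutrophils stayed between 813 and 1011 under 8 other limits. The uninjured number was 2 with a mitochondrial limit of 5% and 7 with one of 20%. With a minimum of 10 CPM, 5378 genes were lower, since more genes were tested. Ratios against other injured cells were recomputed for 30 of the named genes, the 20 highest and 10 lowest by this same ratio. None of the 240 changed direction, for which genes picked as extremes left little room, while 121 moved beyond their counting interval. The median of the primary granule list turned from 3.89 to -0.0386 without states 5 and 7. A pseudocount of 1 CPM leaves the counts against other injured cells as they are by construction.

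The number of states was 11 at resolution 0.8 and 4 after thinning to 1000 UMIs, against 7. The state highest in both the interferon and the secondary granule list held 3.97% of neutrophils at resolution 0.3, 4.29% with 2000 variable genes and 9.55% after thinning. The state highest in the inflammatory list held 9.11% at resolution 0.8 and 42.0% after thinning, when the cells of states 6 and 7 joined most of state 1. The cells of states 1 to 3 were divided otherwise in several settings. The nearest cluster kept 38.7% of state 1 and 47.2% of state 2 at resolution 0.8, 68.3 and 56.1% with 2000 variable genes and 72.4 and 49.7% with doublet-scored cells removed. Most of state 3 joined clusters of 412 cells at resolution 0.3 and 371 with those cells removed. After thinning to 1000 UMIs, 52.3% of state 3 lay in a cluster of 402 cells that also held 73.0% of state 2. State 3 made up 14.4% of that cluster. State 6 came back with all 28 cells at resolutions 0.3 and 0.8 and with another seed, and within a cluster of 40 with 2000 variable genes. Cxcr2 had a UMI in 79.4% of neutrophils at 2000 UMIs per cell. The difference between Xist and Y cells in their share of state 1 was 27.6 percentage points, and 32.7 after thinning. Without states 5 and 7 the log2 ratio of Xist over Y cells went from -0.86 to -0.53 for the circulating list and turned from -0.22 to 0.10 for the inflammatory list. The cause of these shifts was not tested. States 6 and 7 are limited by their few cells, at median depths of 3578 and 2934 UMIs against 3680 in state 1.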
